A study of Mus musculus with 60 samples.

Results

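The genes described here are the axon guidance ligands and receptors of the mouse brain, as measured in sorted microglia and astrocytes. Members were taken by name: semaphorins, plexins, Slits, Robos, ephrins and Eph receptors, together with Nrp1, Nrp2 and Ptprs. Of 64 genes that matched by name, 52 reached 0.5 FPKM (a fragment count divided by gene length and library size) in at least 1 of 20 groups and were kept, out of 20255 genes that reached this level and 35999 in all. The 12 left out at this level were Epha1, Epha6, Epha8, Epha10, Ephb2, Robo2, Robo3, Sema3a, Sema3e, Sema3f, Slit2 and Slit3. The 52 comprised 17 semaphorins, 12 entries with a plexin name, 8 ephrins, 5 EphA and 4 EphB receptors, 2 neuropilins, 2 Robos, Slit1 and Ptprs. Of the 12 plexin entries, 3 (Plxna4os1, Plxna4os2 and Plxna4os3) are transcripts from the strand opposite Plxna4 and encode no plexin, which left 49 genes for ligands and receptors.

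Axon guidance proteins steer growing axons during development and stay in use in the adult brain, where they act on synapses, vessels, myelin-forming cells and immune cells. Semaphorins signal through plexins, and the secreted class 3 semaphorins bind mainly neuropilins, which act as co-receptors beside a plexin. Slits signal through Robos, and ephrins signal through Eph receptor tyrosine kinases, in both directions where cells touch, while Ptprs is a receptor phosphatase that binds chondroitin and heparan sulphate proteoglycans of the matrix.

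The study compared male APPswe/PS1-dE9 mice (AD), which carry a mutant human APP and a mutant human PS1 transgene, with their C57BL/6J wild-type littermates (WT), at 2, 4, 6, 9 and 12 months of age. Microglia were sorted from dissociated whole brains as CD11b-positive cells of low to intermediate CD45, and astrocytes by ACSA2, and RNA was sequenced as full-length cDNA without strand marking. Both transgenes are present from before birth in every AD mouse, so the 2-month AD group is no baseline free of the transgenes. The labels give 3 samples for each of the 20 groups of cell type, genotype and age, and the methods state that each came from a single brain.

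The deposited table holds 1 FPKM value per group, which is the mean over its libraries. Since every library adds whole fragments, the fragment counts of the single libraries could be recovered from the group values: 58 libraries in all, 3 in 18 groups and 2 in WT microglia at 12 months and AD microglia at 4 months. Recovered libraries held about 13062400 to 22830400 fragments. Differences between groups were tested with limma on log2(FPKM + 0.1) of these libraries, over all genes of a comparison that reached 0.5 FPKM, and a gene was called at a Benjamini-Hochberg adjusted p under 0.05 with a log2 difference beyond 0.5. Group values are given as the deposited means, and values of libraries singly in rising order. Fold changes are on the scaled log2(FPKM + 0.1) scale, which understates changes of genes near 0.1 FPKM, and the p-values measure the spread between these libraries.

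Markers of the sorted cells set a limit on how the values can be read. Summed over 8 genes, microglial markers were at 10939 to 27794 FPKM in the microglia groups and at 19.2 to 39.8 FPKM in the groups labelled astrocytes. In the groups labelled astrocytes, astrocyte markers (8 genes) summed to 377 to 641 FPKM, but oligodendrocyte markers (7 genes) to 10296 to 17474 FPKM, mural cell markers to 804 to 1696 FPKM, endothelial markers (9 genes) to 326 to 2166 FPKM and markers of choroid plexus and ependyma (6 genes) to 194 to 3099 FPKM. These libraries are therefore called ACSA2+ libraries here, and which cell a transcript came from was not tested. In such bulk samples, fewer cells of a type and less RNA per cell cannot be told apart. Libraries of 6 months and of AD 12 months stood apart from all others in both cell types, along a first principal component that held 27.7% of the variance in microglia and 18.0% in ACSA2+ libraries. In AD microglia at 4 months, library 1 carried 753 FPKM of endothelial markers, against 10.1 FPKM in library 2. Over the libraries of this group, mural cell markers ran from 4.56 to 407 FPKM, astrocyte markers from 3.01 to 89.0 FPKM and oligodendrocyte markers from 42.4 to 141 FPKM. Endothelial markers also ran from 11.7 to 228 FPKM over the libraries of AD microglia at 2 months, and from 18.7 to 149 FPKM over those of WT microglia at 4 months. The choroid plexus and ependyma list, most of it from Ttr, was also present in microglia and moved between groups. It was at 1166, 5423, 4865, 193 and 962 FPKM in AD microglia and 309, 2052, 3357, 254 and 10.3 FPKM in WT microglia at 2, 4, 6, 9 and 12 months, with no gene of the list at 0. Its part in the differences between microglia groups was not tested.

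Most members were higher in ACSA2+ libraries than in microglia. All 10 microglia groups lay above all 10 ACSA2+ groups for 6 of 52 members, where 20.4% of all expressed genes did so, and the reverse held for 30 members, against 25.7% of all expressed genes. With single libraries in place of groups, 4 members lay apart toward microglia and 19 toward ACSA2+ libraries. No share of all expressed genes was taken at the level of libraries, so these counts cannot be set against other genes. The plot of all members by group shows this split, with the broad block of semaphorins, ephrins and Eph receptors higher on the ACSA2+ side.

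**Figure D1:**
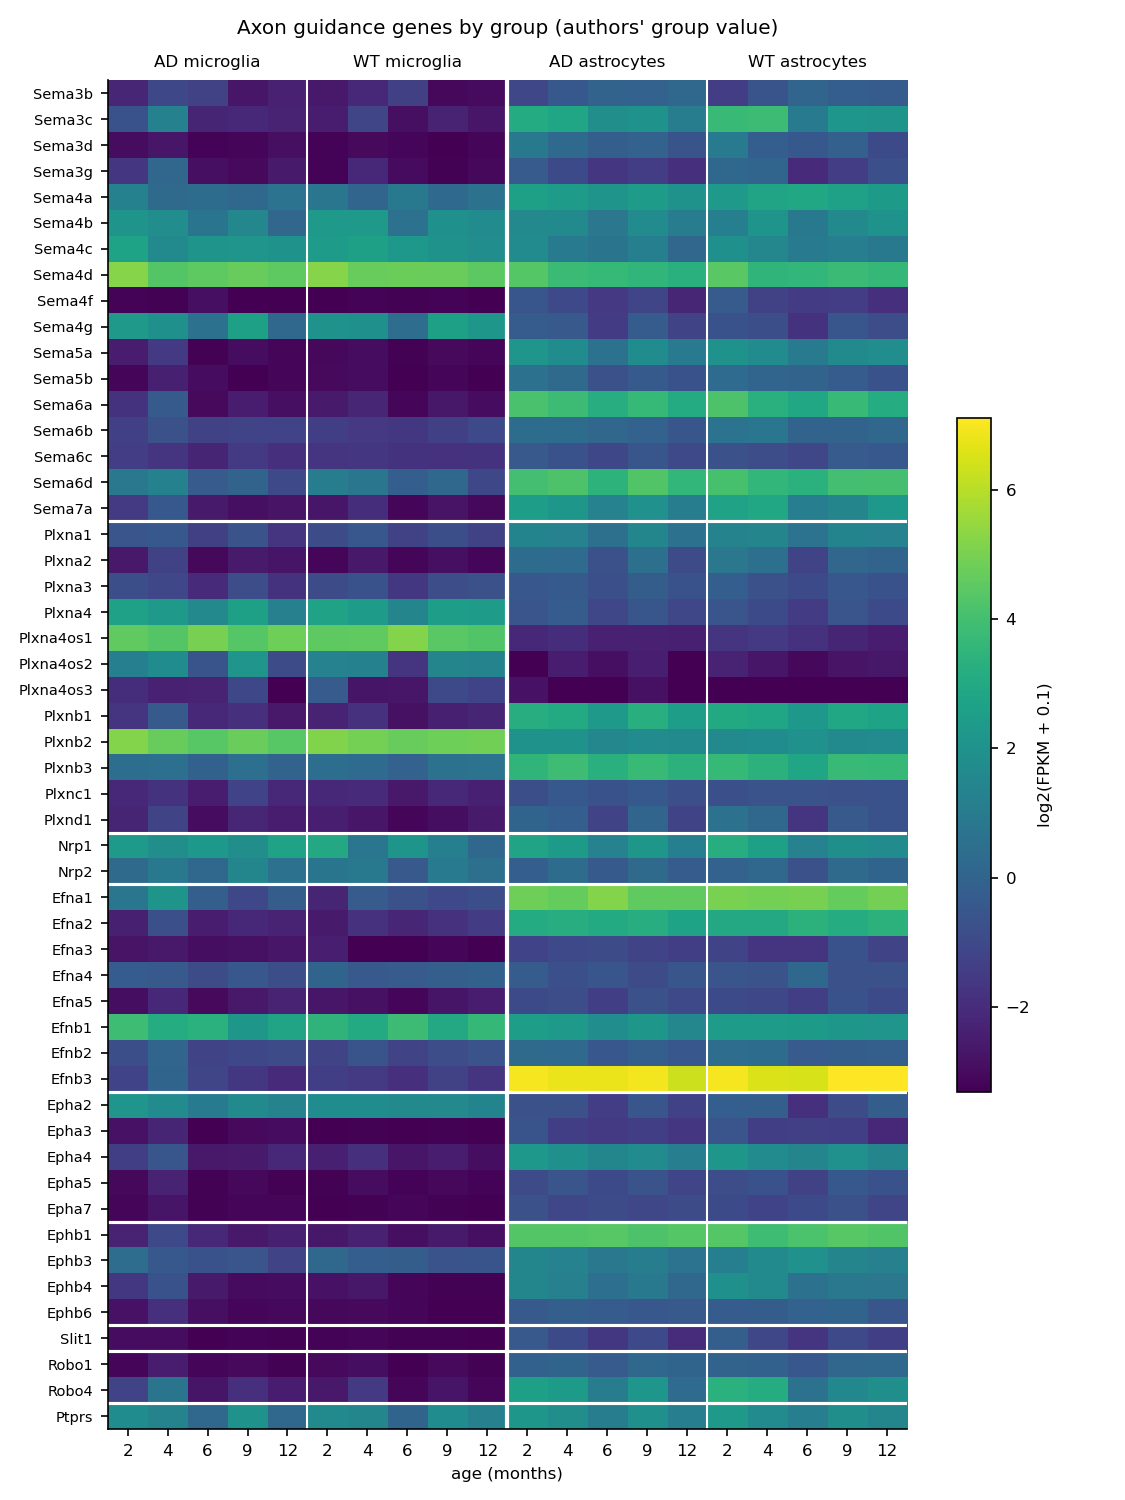
Level of each of the 52 members in each of the 20 groups, as log2(FPKM + 0.1) of the deposited group value (colour), with members ordered by family and groups by cell type, genotype and age. Plxnb2, Plxna4, Sema4g and Plxna4os1 are brighter (higher) in microglia, while Efnb3, Ephb1, Sema6a and Efna1 are brighter in the groups labelled astrocytes.

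Among receptors, Plxnb2, a plexin that binds class 4 semaphorins, was the highest in microglia, at 21.4 to 36.6 FPKM over the microglia groups and 2.77 to 4.05 FPKM over the ACSA2+ groups, a mean log2 difference of 3.10. Plxna4, a receptor for class 3 and class 6 semaphorins, was at 2.27 to 6.35 FPKM in microglia and 0.264 to 0.721 FPKM in ACSA2+ groups (log2 difference 3.06). Plxna4os1 exceeded Plxna4 itself in every microglia group, at 19.4 to 36.6 FPKM, against 0.0770 to 0.241 FPKM in ACSA2+ groups, and gave the largest difference of any member toward microglia (6.76). Plxna4os2 followed at 0.197 to 4.31 FPKM in microglia and 0 to 0.0996 FPKM in ACSA2+ groups (3.56). Neither transcript shares an exon base with Plxna4, whereas Plxna4os3 shares 110 of its 403 exon bases, and the libraries do not mark strand, so the reads of those shared bases cannot be told apart. Only exon bases were compared, and overlap with introns of Plxna4 was not examined. Sema4g, a transmembrane class 4 semaphorin, and Epha2, a receptor for ephrin-As, completed the 6, with log2 differences of 2.58 and 2.47.

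On the other side, Efnb3, a transmembrane ephrin known for expression in myelinating oligodendrocytes and midline cells, stood at 0.145 to 0.931 FPKM in microglia groups and 81.3 to 139.7 FPKM in ACSA2+ groups, a log2 difference of -8.13. It was the highest member of all in ACSA2+ libraries. Ephb1, a receptor for B-type ephrins, was at 0.0328 to 0.396 FPKM in microglia and 14.7 to 21.4 FPKM in ACSA2+ groups (-6.61), and Sema6a, a transmembrane semaphorin that binds Plxna2 and Plxna4, at 0.00971 to 0.674 FPKM in microglia and 7.29 to 18.6 FPKM in ACSA2+ groups (-5.89). For all 3 genes the highest microglia value came from AD microglia at 4 months. The libraries of that group differed in endothelial, mural, astrocyte and oligodendrocyte markers, as given above. The part of this difference in the values was not tested. Efna1, Efna2 and Plxnb1 came next, at -5.14, -5.06 and -4.78. Within families, the highest members were Sema4d, Plxnb2, Efnb1, Epha2 and Ephb3 in microglia, and Sema6d, Plxnb3, Efnb3, Epha4 and Ephb1 in ACSA2+ libraries, while Nrp1, Robo4 and Slit1 led their families in both.

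Sema4d, a transmembrane semaphorin that is shed from the cell surface and signals through B-type plexins, was the highest semaphorin of microglia. It was the only member whose later libraries all lay below those of 2 months in both genotypes and both cell types. No share of all genes was taken for this, so it cannot be set against other genes. The drop came between 2 and 4 months, with no steady fall after that. In AD microglia it was at 35.9, 36.1 and 39.0 FPKM at 2 months, 17.5 and 22.6 at 4 months, 21.4, 23.3 and 23.9 at 6 months, 23.9, 25.8 and 26.8 at 9 months, and 21.7, 23.3 and 25.1 at 12 months. In WT microglia it was at 35.5, 37.7 and 37.7 FPKM at 2 months, 21.7, 23.5 and 31.7 at 4 months, 23.9, 28.9 and 29.7 at 6 months, 26.0, 27.3 and 27.6 at 9 months, and 19.5 and 25.4 at 12 months. Every library of the 4 later ages lay below every 2-month library of its genotype. The log2 differences against 2 months in AD microglia were -0.84, -0.70, -0.56 and -0.66 at 4, 6, 9 and 12 months (limma, adjusted p = 0.003, 0.00012, 0.0023 and 0.00018), each of which passed and did so with any single library left out. The difference of 9 months was -0.46 after quantile normalization and -0.45 with size factors taken from genes at 1 FPKM or more, and that of 12 months was -0.50 with the trend in gene length removed, which leaves them just under the fold threshold. In WT microglia they were -0.55, -0.46, -0.46 and -0.73 (adjusted p = 0.016, 0.0034, 0.032 and 0.0031), and only those of 4 and 12 months passed the fold threshold too. The WT call of 12 months was lost without WT 12-month library 1 (adjusted p = 0.085), and that of 4 months without any of 4 libraries (adjusted p up to 0.12). AD and WT did not differ past the threshold at any age, with log2 differences of AD against WT of 0.00, -0.30, -0.25, -0.11 and 0.06 at 2, 4, 6, 9 and 12 months.

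Of the B-type plexins, Plxnb1 and Plxnb2 are known receptors of Sema4d and Plxnb3 of Sema5a, and Plxnb2 was the highest of the 3 in microglia. In AD microglia all 11 later libraries, at 19.2 to 29.1 FPKM, lay below the 3 libraries of 2 months, at 33.7 to 38.1 FPKM, and the log2 differences were -0.46, -0.79, -0.47 and -0.76 at 4, 6, 9 and 12 months, of which those of 6 and 12 months passed. In WT microglia the differences were -0.21, -0.46, -0.32 and -0.25, and none passed the fold threshold. Plxnb1 was at 0.0397 to 0.677 FPKM in microglia groups and 4.65 to 9.61 FPKM in ACSA2+ groups, and Plxnb3 at 0.852 to 1.46 FPKM in microglia groups and 7.12 to 14.4 FPKM in ACSA2+ groups. The start-site sequences of Sema4d and the 3 B-type plexins are given because Sema4d is the member with all later libraries below those of 2 months in both cell types. Plxnb2 is the receptor beside it in the same cells. They differ in how many CG dinucleotides, the sites of DNA methylation, they hold. Each is the 250 bases before and 50 after the first listed start in RefSeq (GRCm38.p6), 5′ to 3′ on the gene's strand, with every CG in capitals.
Sema4d: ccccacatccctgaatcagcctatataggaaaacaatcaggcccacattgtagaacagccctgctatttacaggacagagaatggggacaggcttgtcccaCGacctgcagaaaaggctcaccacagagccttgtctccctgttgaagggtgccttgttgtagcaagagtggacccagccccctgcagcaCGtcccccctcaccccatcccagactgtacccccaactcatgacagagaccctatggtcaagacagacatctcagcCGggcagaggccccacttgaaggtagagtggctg
Plxnb2: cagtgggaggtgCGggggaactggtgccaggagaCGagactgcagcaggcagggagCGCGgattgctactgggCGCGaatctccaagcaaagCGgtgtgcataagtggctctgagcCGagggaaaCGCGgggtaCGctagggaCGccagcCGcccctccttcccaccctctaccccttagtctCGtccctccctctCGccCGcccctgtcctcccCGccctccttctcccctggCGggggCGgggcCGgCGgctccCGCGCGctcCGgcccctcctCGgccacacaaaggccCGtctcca
Plxnb1: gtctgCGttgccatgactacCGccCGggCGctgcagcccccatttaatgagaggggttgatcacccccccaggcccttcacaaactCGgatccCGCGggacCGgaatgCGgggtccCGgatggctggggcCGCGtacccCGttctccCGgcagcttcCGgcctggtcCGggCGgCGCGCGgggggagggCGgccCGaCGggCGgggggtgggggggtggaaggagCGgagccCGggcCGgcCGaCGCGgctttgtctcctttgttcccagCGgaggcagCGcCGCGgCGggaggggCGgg
Plxnb3: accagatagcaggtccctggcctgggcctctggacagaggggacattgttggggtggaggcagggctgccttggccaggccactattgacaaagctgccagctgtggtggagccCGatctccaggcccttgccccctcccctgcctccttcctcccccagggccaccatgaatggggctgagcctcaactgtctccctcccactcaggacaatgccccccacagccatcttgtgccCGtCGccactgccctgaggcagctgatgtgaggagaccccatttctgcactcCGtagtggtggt

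The windows lie at chr13:51748761-51749060 (minus strand), chr15:89180739-89181038 (minus strand), chr9:109095186-109095485 (plus strand) and chrX:73756853-73757152 (plus strand). Sema4d holds 3 CG and Plxnb3 holds 4, while Plxnb2 holds 27 and Plxnb1 holds 36. A RefSeq window was matched for 43 of the 52 members, with a median of 22 CG, against a median of 19 over 11948 expressed genes with such a window, of which 99.2% hold at least 1 CG. Windows with as few CG as that of Sema4d or fewer made up 8.78% of those of expressed genes, and windows with as many as that of Plxnb2 or more 28.4%. No methylation was measured here, and other start sites of these genes were not used.

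In microglia, members called lower with age outnumbered those called higher in every comparison but WT at 9 months. In AD microglia 2 of 31 members tested were lower and 0 higher at 4 months (2.48% and 2.36% of all genes tested were lower and higher), 14 of 21 lower and 0 higher at 6 months (18.0% and 12.8%), 6 of 21 lower and 2 higher at 9 months (6.29% and 11.9%), and 13 of 21 lower and 0 higher at 12 months (17.9% and 15.9%). In WT microglia 2 of 23 were lower and 0 higher at 4 months (1.07% and 1.42%), 8 of 20 lower and 1 higher at 6 months (23.3% and 15.6%), 1 of 19 lower and 1 higher at 9 months (1.15% and 2.53%), and 2 of 21 lower and 0 higher at 12 months (3.26% and 3.66%). Where 0 members were called higher, limma gave an unadjusted p under 0.05 with a higher value for 3, 1 and 0 members in AD at 4, 6 and 12 months and for 0 and 0 in WT at 4 and 12 months. The median log2 difference of the members was -0.78 in AD at 12 months, against -0.01 over all genes tested, and -0.25 in WT at 12 months, against 0.02. Genes longer than 5 kb, which many members are (median length 6112 bases, against 2921 bases for expressed genes), had a median of -0.26 in AD at 12 months, and -0.28 and -0.34 in AD and WT at 6 months. Of all genes over 5 kb tested, 28.8%, 28.7% and 37.0% were called lower in these 3 comparisons. With the trend in gene length removed, the members called lower in these 3 comparisons numbered 11, 12 and 7.

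Members called lower at all 4 later ages were 2 in AD microglia (0.3% of all genes tested), Sema4d and Sema4c, and 0 in WT microglia (0.16%), where 1 member was lower at an unadjusted limma p under 0.05 at all 4 ages. Sema4c, a transmembrane semaphorin that binds Plxnb2, was at 4.54, 7.52 and 7.90 FPKM in AD microglia at 2 months, 2.78 and 3.48 at 4 months, 3.24, 3.57 and 5.48 at 6 months, 3.82, 4.33 and 4.79 at 9 months, and 3.26, 3.58 and 4.92 at 12 months. The lowest 2-month library thus lay within the range of later ones, and the log2 differences of -0.99, -0.70, -0.60 and -0.73 (limma, adjusted p = 0.021, 0.013, 0.041 and 0.009) were each lost without 1 or more single libraries, among them AD 2-month library 1 for all 4 ages. AD 2-month library 1 also held 71.9 FPKM of the endothelial marker Cldn5, against 4.70 and 3.04 FPKM in the other libraries of its group, and the part of this was not tested. In WT microglia Sema4c was at 5.44, 6.02, 4.70, 3.87 and 3.41 FPKM as group values over the 5 ages, with no call.

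Sema6d, a transmembrane semaphorin that binds Plxna1 and Plxna4, was called lower from 6 months on in both genotypes. In AD microglia it was at 1.56, 1.76 and 1.78 FPKM at 2 months, 1.65 and 3.0 at 4 months, 0.653, 0.698 and 0.734 at 6 months, 0.805, 0.881 and 0.996 at 9 months, and 0.333, 0.337 and 0.522 at 12 months. In WT microglia it was at 1.98, 2.03 and 2.16 FPKM at 2 months, 1.61, 1.62 and 1.64 at 4 months, 0.689, 0.783 and 0.822 at 6 months, 0.929, 1.03 and 1.09 at 9 months, and 0.365 and 0.391 at 12 months. From 6 months on, all libraries lay below the 2-month libraries of their genotype, and in WT those of 4 months did so too, without a call (log2 difference -0.33, limma adjusted p = 0.32). The log2 differences were -1.19, -0.88 and -1.87 in AD and -1.35, -0.95 and -2.17 in WT at 6, 9 and 12 months, and all 6 calls held with any single library left out.

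Nrp1, the co-receptor of class 3 semaphorins and of VEGF, differed too much between libraries to be called in microglia. In AD microglia at 12 months it was at 2.31, 5.69 and 11 FPKM, which spans the 2-month libraries at 4.14, 4.92 and 5.44 FPKM. In WT microglia it was at 5.85, 7.41 and 10.1 FPKM at 2 months, 0.332, 0.688 and 3.90 at 4 months, 3.74, 4.39 and 4.40 at 6 months, 0.406, 0.613 and 5.56 at 9 months, and 0.819 and 1.31 at 12 months. The later WT libraries lay below those of 2 months without overlap, but with log2 differences of -2.80, -2.60 and -2.76 at 4, 9 and 12 months (SE 0.86, 0.86 and 0.96) the adjusted p was 0.073, 0.078 and 0.074 (limma). Markers of border macrophages (4 genes) summed to 1.44, 1.16, 0.984, 0.521 and 1.72 FPKM in AD microglia at 2, 4, 6, 9 and 12 months. In WT microglia the sums were 3.32, 1.06, 1.03, 0.732 and 0.619 FPKM. The part of such cells in the levels of Nrp1 was not tested.

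Plxna4, Sema4g and Ptprs shared a course of another kind in microglia, with low values in the libraries that stood apart. Ptprs was at 0.864, 0.942 and 1.27 FPKM in AD microglia at 6 months and 0.959, 1.04 and 1.1 at 12 months, against 2.99, 3.13 and 3.67 at 2 months, and its log2 differences were -1.60 at 6 months and -1.56 at 12 months. In WT microglia it was at 0.826, 0.944 and 1.05 FPKM at 6 months, against 2.95, 2.96 and 3.18 at 2 months (-1.62). At 12 months, at 2.22 and 2.26 FPKM, it was not called (-0.42). Plxna4 had differences of -1.07 and -1.41 in AD at 6 and 12 months and of -1.26 and -0.26 in WT, and Sema4g of -1.76 and -2.10 in AD and of -1.68 and 0.16 in WT. Of these, the 6 in AD and the 3 in WT at 6 months were called, and all 9 calls held with any single library left out.

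Plxna4os1 was high where Plxna4 was low. In AD microglia it was at 28.5, 31.2 and 34.6 FPKM at 6 months, against 20.5, 23.9 and 26.4 FPKM at 2 months (log2 difference 0.40, under the fold threshold), and at 12 months the difference was 0.27 (limma, adjusted p = 0.13). In WT microglia at 6 months it was at 35.8, 35.9 and 38.2 FPKM, against 20.5, 22 and 26.5 FPKM at 2 months (0.65, limma adjusted p = 0.00079), and it was the 1 member called higher in that comparison. In both genotypes the libraries of 6 months lay above those of 2 months. Plxna4os2 instead fell together with Plxna4, by 1.82 and 2.11 on the log2 scale in AD at 6 and 12 months and by 3.26 in WT at 6 months. The 2 transcripts lie on the same strand, and what sets their levels was not tested.

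**Figure D2:**
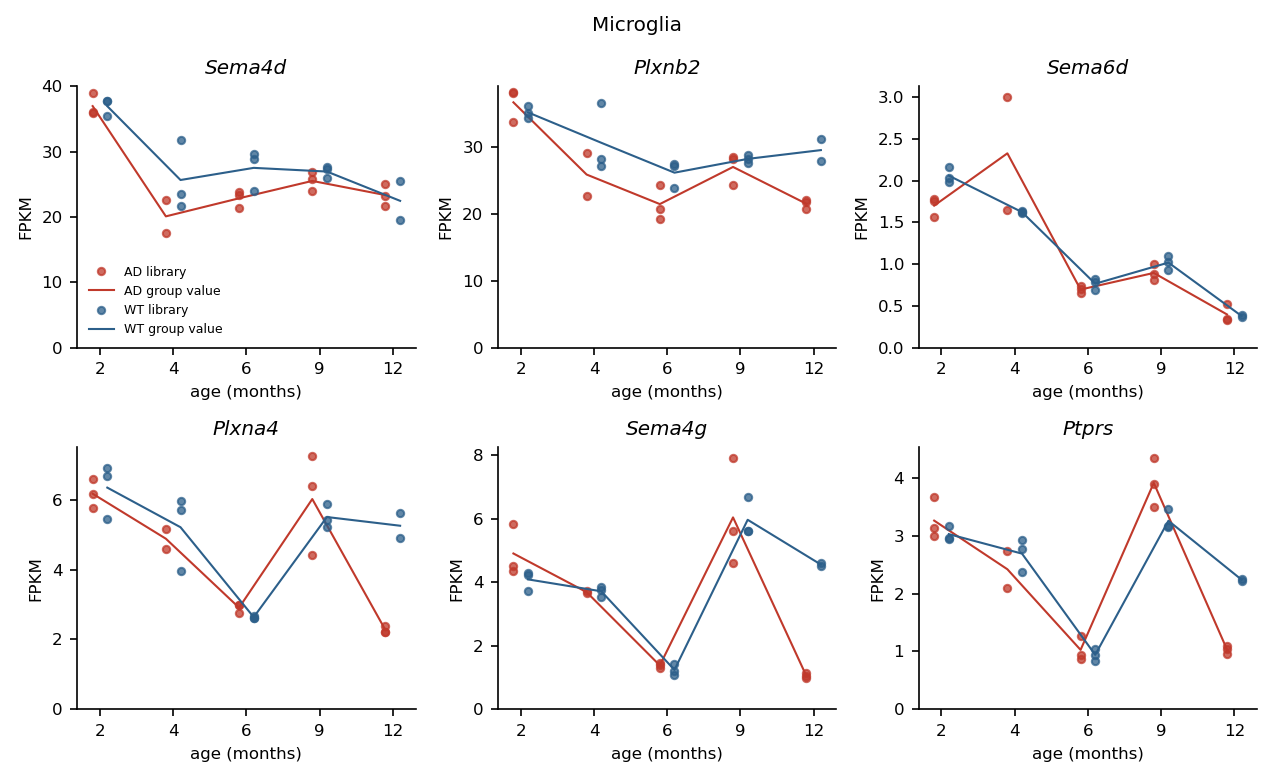
FPKM of Sema4d, Plxnb2, Sema6d, Plxna4, Sema4g and Ptprs in microglia by age in months (evenly spaced), with a point for each library and a line through the deposited group values, AD left of WT. Sema4d is highest at 2 months in both genotypes, and Plxna4, Sema4g and Ptprs dip at 6 months in both genotypes and at 12 months in AD.

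In ACSA2+ libraries more members could be tested than in microglia. In AD, 2 of 47 members tested were lower and 1 higher at 4 months (1.62% and 2.81% of all genes tested), 30 of 46 lower and 1 higher at 6 months (14.0% and 10.9%), 5 of 48 lower and 2 higher at 9 months (3.58% and 5.43%), and 29 of 45 lower and 1 higher at 12 months (14.1% and 12.7%). In WT, 7 of 46 were lower and 2 higher at 4 months (3.47% and 4.37%), 30 of 45 lower and 4 higher at 6 months (25.2% and 22.3%), 18 of 48 lower and 1 higher at 9 months (6.85% and 5.58%), and 18 of 46 lower and 2 higher at 12 months (9.95% and 9.46%). At 12 months the lower members in AD comprised 13 of 17 semaphorins, 5 of 8 plexins and 3 of 6 ephrins tested, and in WT 9 of 17 semaphorins, 2 of 9 plexins and 0 of 6 ephrins. The median log2 difference of the members at 12 months was -0.85 in AD, against 0.00 over all genes tested, and -0.30 in WT, against 0.01. The WT count of 9 months came to 9 without WT 2-month library 2, 11 without WT 2-month library 3 and 10 without WT 9-month library 1. At 6 months, where genes over 5 kb had a median of -0.41 in WT, the WT count of lower members was 19 with the trend in gene length removed. Of all genes over 5 kb tested, 24.8% and 22.9% were called lower in AD at 6 and 12 months, and 43.0% and 13.6% in WT.

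Sema6a, Sema4d, Slit1, Sema3d and Epha3 were called lower at all 4 later ages in WT ACSA2+ libraries (5 of 45 members, against 1.03% of all genes tested), and Sema3b was called higher (1 of 45, against 1.21%). In AD, Sema3d alone was called lower at all 4 ages (0.576%) and 0 members were called higher, with 1 at an unadjusted limma p under 0.05 at all 4 ages. The WT count of 5 came to 1 without WT 2-month library 2 or 3 or WT 9-month library 1, and Sema6a at 9 months and Epha3 at 4 months were not called in 23 and 14 of 30 fits with 1 library left out. Without the 6-month groups the same counts were reached.

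Sema4d fell in the ACSA2+ libraries as in microglia. In AD it was at 16.9, 20.9 and 24.6 FPKM at 2 months, 13.1, 14.2 and 14.5 at 4 months, 8.35, 13.9 and 16.0 at 6 months, 11.4, 11.8 and 11.8 at 9 months, and 9.31, 9.53 and 10.8 at 12 months. In WT it was at 21.8, 22 and 22.6 FPKM at 2 months, 9.36, 10.6 and 14.2 at 4 months, 11.1, 11.1 and 13.6 at 6 months, 13, 14.5 and 14.5 at 9 months, and 8.5, 13.9 and 14.4 at 12 months. All later libraries lay below all 2-month libraries of their genotype. The log2 differences were -0.56, -0.72, -0.80 and -1.05 in AD, where the first had an adjusted p of 0.087 and was not called, and -0.97, -0.89, -0.68 and -0.89 in WT. Sema4d is also expressed by oligodendrocytes, whose markers were the most abundant of the marker lists in these libraries. Their sum was at 17054, 14602, 14862, 10898 and 12994 FPKM in AD and 17474, 13491, 10296, 13873 and 14586 FPKM in WT over the 5 ages. Mbp of this list went from 1682 to 1876 FPKM in AD and from 1703 to 2501 FPKM in WT between 2 and 12 months. The part of oligodendrocytes in the fall of Sema4d was not tested.

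Sema6a was also highest at 2 months. In AD it was at 7.36, 8.76 and 9.60 FPKM at 12 months, against 15.9, 16.3 and 19.2 FPKM at 2 months (log2 difference -0.99), with 1 library of 4 months (17.7) inside the 2-month range. In WT libraries it was at 16.6, 18.7 and 20.5 FPKM at 2 months, 9.16, 10.0 and 10.5 at 4 months, 6.69, 7.40 and 7.77 at 6 months, 12.1, 13.4 and 13.8 at 9 months, and 7.40, 8.64 and 10.5 at 12 months, so that the 2-month libraries stood above all later ones. The log2 differences in WT were -0.89, -1.34, -0.52 and -1.08 at 4, 6, 9 and 12 months. Of its receptors, Plxna2 was lower at 6, 9 and 12 months in WT (-2.00, -0.71 and -0.81), and Plxna4 was at 0.264 to 0.721 FPKM over the ACSA2+ groups.

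Sema3d, a secreted class 3 semaphorin, was the 1 member called lower at all 4 later ages in both genotypes. In AD libraries it was at 1.64, 1.65 and 1.96 FPKM at 2 months, 0.758, 1.16 and 1.36 at 4 months, 0.699, 0.825 and 0.830 at 6 months, 0.696, 0.912 and 1.02 at 9 months, and 0.466, 0.508 and 0.689 at 12 months. In WT libraries it was at 1.52, 2.14 and 2.18 FPKM at 2 months, 0.621, 0.817 and 0.854 at 4 months, 0.577, 0.633 and 0.698 at 6 months, 0.659, 0.890 and 0.911 at 9 months, and 0.329, 0.423 and 0.477 at 12 months. The 2-month libraries lay above all later ones in both genotypes. The log2 differences were -0.66, -1.05, -0.92 and -1.50 in AD and -1.23, -1.47, -1.16 and -2.01 in WT (limma, adjusted p of 12 months 6.6e-06 in AD and 4.3e-07 in WT). The AD call of 4 months (adjusted p = 0.047) was lost in 21 of 30 fits with 1 library left out.

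Slit1, the secreted ligand of Robo receptors, and Epha3, a receptor for ephrin-As, were low throughout. In AD, where the 2-month libraries of Slit1 at 0.455, 0.591 and 0.899 FPKM overlapped with later ones, the log2 differences against 2 months were -0.53, -1.21, -0.56 and -1.56 at 4, 6, 9 and 12 months, and those of 6 and 12 months were called. Slit1 was at 0.190, 0.315 and 0.333 FPKM in WT libraries of 12 months, the lowest of which held 22 fragments, against 0.715, 0.783 and 0.860 FPKM in those of 2 months. All later WT libraries lay below those of 2 months, with log2 differences of -0.92, -1.58, -0.86 and -1.25 at 4, 6, 9 and 12 months. Robo1, a receptor of Slits, was at 0.607 to 1.03 FPKM over these groups and was called in 1 comparison with 2 months, lower at 6 months in WT (-0.53). Epha3 was at 0.0624, 0.152 and 0.163 FPKM in WT libraries of 12 months, the lowest of which held 7 fragments, against 0.493, 0.583 and 0.642 FPKM in those of 2 months. Its log2 differences were -1.03 in AD at 12 months, and -0.78, -0.80, -0.84 and -1.61 in WT at the 4 later ages.

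Sema3b, a secreted semaphorin that binds neuropilins, moved the other way. In AD libraries it was at 0.259, 0.418 and 0.434 FPKM at 2 months, 0.60, 0.610 and 0.670 at 4 months, 0.806, 0.875 and 0.999 at 6 months, 0.679, 0.945 and 1.01 at 9 months, and 0.942, 0.963 and 1.21 at 12 months. In WT libraries it was at 0.209, 0.278 and 0.318 FPKM at 2 months, 0.491, 0.515 and 0.670 at 4 months, 0.842, 0.905 and 1.16 at 6 months, 0.633, 0.665 and 1.05 at 9 months, and 0.570, 0.611 and 0.985 at 12 months. Every later library lay above every 2-month library of its genotype. The log2 differences were 1.11, 1.07 and 1.29 in AD at 6, 9 and 12 months, where it passed, while AD at 4 months did not, and 0.84, 1.53, 1.22 and 1.13 in WT. The WT call of 4 months was lost without WT 2-month library 3 or WT 4-month library 2 (adjusted p up to 0.072).

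**Figure D3:**
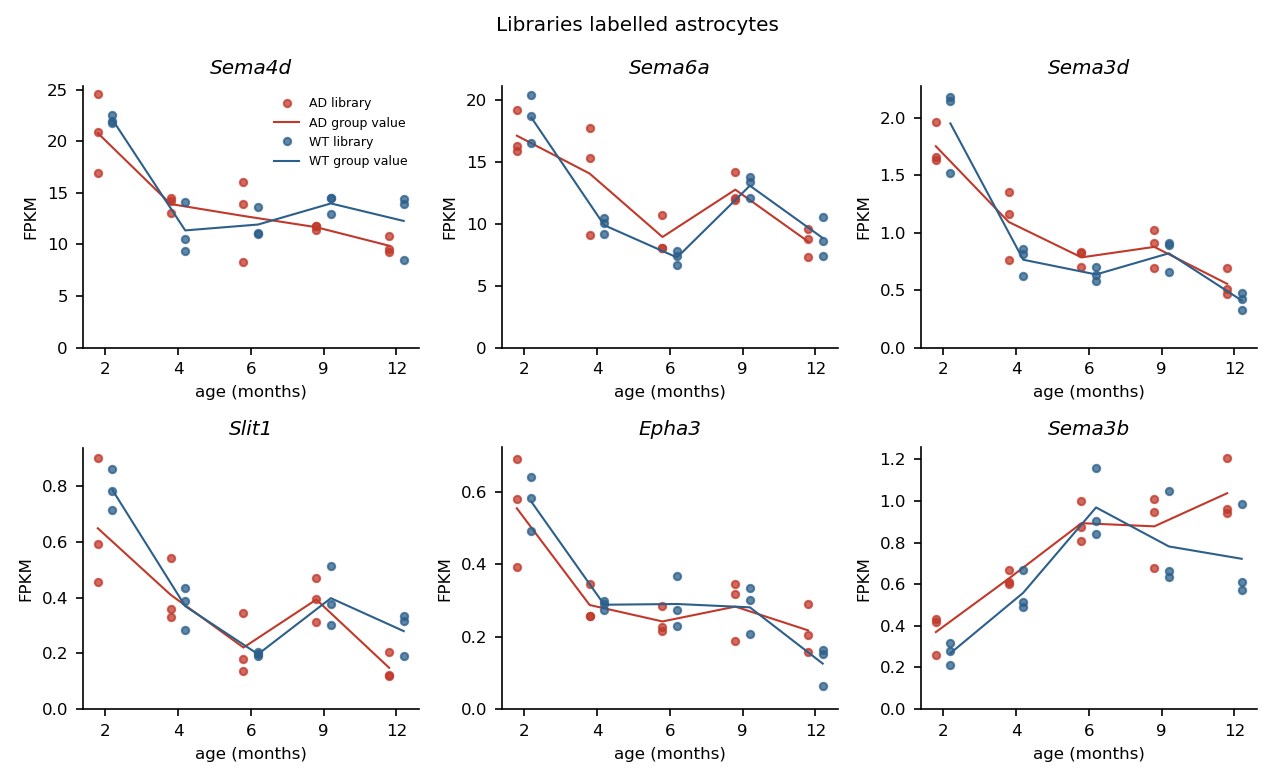
FPKM of Sema4d, Sema6a, Sema3d, Slit1, Epha3 and Sema3b in the libraries labelled astrocytes by age in months (evenly spaced), with a point for each library and a line through the deposited group values, AD left of WT. The first 5 are highest at 2 months, and Sema3b is lowest at 2 months, in both genotypes.

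Some oligodendrocyte precursor genes were also lower with age in the same libraries. Of the 6 genes of this list, 3, 6, 3 and 5 were called lower in AD and 3, 5, 3 and 2 in WT at 4, 6, 9 and 12 months (limma). Pdgfra, the growth factor receptor of precursors, had log2 differences of -0.78, -1.33, -0.66 and -0.98 in AD, called at 6 and 12 months. In WT they were -0.45, -0.71, -0.72 and -0.51, called at 6 and 9 months. Gpr17, found on precursors close to differentiation, was at 9.20 FPKM in AD at 2 months and 1.82, 1.29, 1.75 and 0.442 FPKM at 4, 6, 9 and 12 months. In WT it was at 12.3 FPKM at 2 months and 1.67, 1.15, 0.829 and 0.671 FPKM at the later ages (log2 differences -2.77, -3.30, -3.73 and -3.99, each called). The part of precursor cells in the fall of the members was not tested. Sema4f, a semaphorin, and Ptprs also fell in WT. Ptprs was at 2.18, 2.78 and 3.03 FPKM in WT libraries of 12 months, against 4.27, 5.22 and 5.47 FPKM in those of 2 months, with log2 differences of -0.61, -1.19 and -0.89 at 4, 6 and 12 months. Sema4f had log2 differences of -1.08, -1.04 and -1.53 at 6, 9 and 12 months. The study named Sema4f, Ptprs, Slit1 and Nrp1 from these same libraries, so their changes here are not independent of that choice.

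Further members were not called at 4 months in WT ACSA2+ libraries and were called lower at 6, 9 and 12 months. The 5 described here have known roles in vessels, but the course was not particular to them. Plxna2 and Sema4f, whose values are given above, were among other members that shared it. Robo4, the Robo of endothelial cells, was at 8.15, 11.1 and 11.3 FPKM at 2 months, 6.99, 9.19 and 10.0 at 4 months, 0.959, 1.56 and 1.82 at 6 months, 2.48, 2.95 and 3.14 at 9 months, and 3.15, 3.66 and 3.89 at 12 months in WT. The libraries of 6, 9 and 12 months lay below all of 2 and 4 months. Its log2 differences at 6, 9 and 12 months were -2.76, -1.80 and -1.48. Sema3c, a secreted semaphorin that acts on vessels, had log2 differences of -2.74, -1.56 and -1.63, its receptor Plxnd1, a plexin of the endothelium, -2.30, -1.0 and -1.28, and Nrp1 -1.85, -1.31 and -1.47. Ephb4, the venous receptor of Efnb2, had -1.34, -1.11 and -1.11. None of these 5 was called at 4 months in WT, although every 4-month library of Nrp1 lay below every 2-month library (-0.55, limma adjusted p = 0.13).

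The endothelial marker list also stayed up at 4 months in WT and was lower from 6 months on. Summed over its 9 genes, it was at 1197, 1036, 573, 559 and 326 FPKM in AD and 1724, 2166, 444, 598 and 845 FPKM in WT at 2, 4, 6, 9 and 12 months, with no gene of the list at 0. Of its 6 genes that could be tested, 0 were lower at 4 months in WT (limma) and 6 were lower at each of 6, 9 and 12 months in WT and at 6 and 12 months in AD. Pecam1 alone was at 8.41, 6.34, 3.83, 5.06 and 2.38 FPKM in AD and 14.6, 12.8, 2.73, 4.08 and 4.67 FPKM in WT. The part of endothelial cells in the levels of Robo4, Sema3c, Plxnd1, Nrp1 and Ephb4 was not tested. In AD, Robo4 was at 0.412, 1.34 and 1.72 FPKM at 12 months, against 3.85, 4.68 and 9.47 FPKM at 2 months (-2.35), and Nrp1 at 1.80, 2.22 and 2.51 FPKM, against 5.23, 5.61 and 9.56 FPKM (-1.55), without overlap in either gene.

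**Figure D4:**
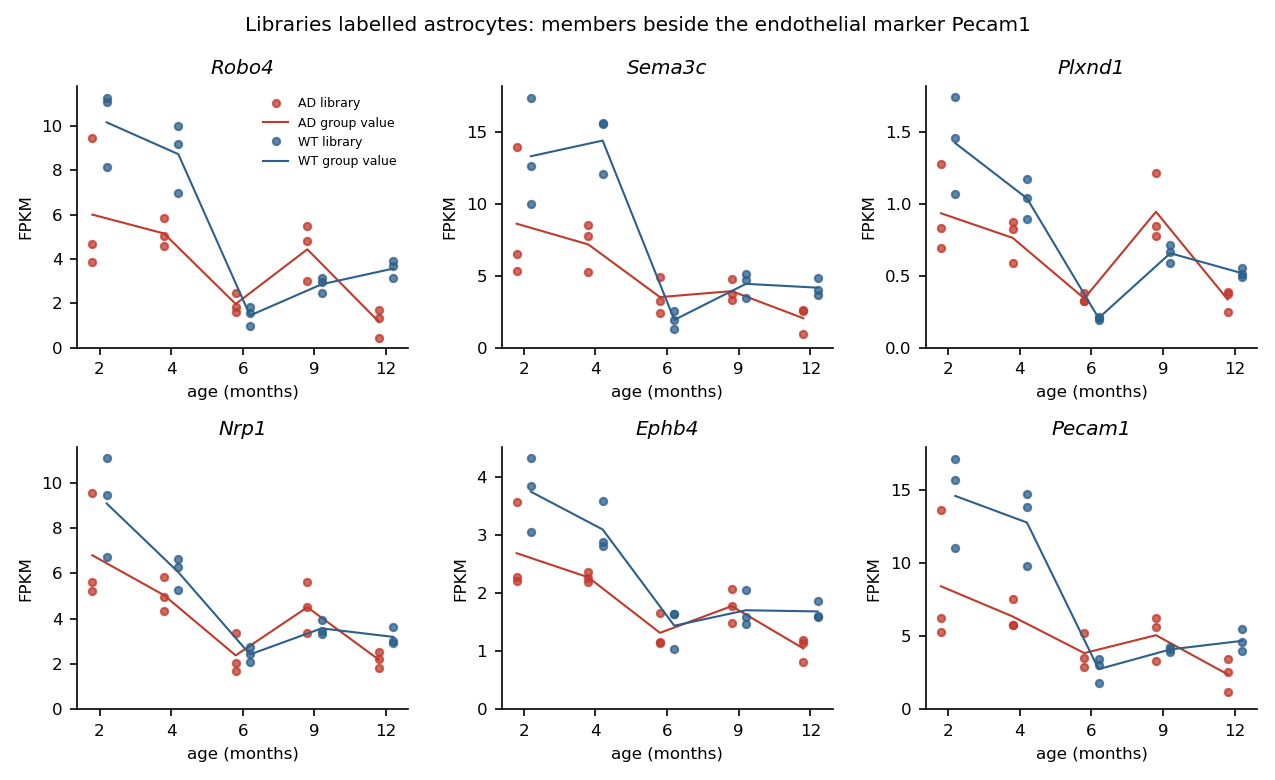
FPKM of Robo4, Sema3c, Plxnd1, Nrp1 and Ephb4 beside the endothelial marker Pecam1 in the libraries labelled astrocytes, by age in months (evenly spaced), with a point for each library and a line through the deposited group values, AD left of WT. In WT the group values of all 6 are lower at 6, 9 and 12 months than at 2 and 4 months, with Nrp1 already lower at 4 than at 2 months, and in AD all 6 are lower at 12 than at 9 months.

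AD against WT differed little among the members before 12 months. In microglia 0 of 22 members tested were called at 2 months (0.029% of all genes tested were higher and 0.0145% lower) and 0 of 32 at 4 months (0.179% and 0.0596%), where limma gave an unadjusted p under 0.05 for 1 higher and 1 lower member at 2 months and 3 higher and 2 lower at 4 months. At 6 months Plxna4os2 was higher (1 of 19, against 0.681% of all genes, and 0 lower, against 0.293%, with 2 at an unadjusted limma p under 0.05), at 0.506, 0.523 and 0.613 FPKM in AD and 0.0589, 0.125 and 0.408 FPKM in WT, where the lowest value came from 2 fragments, and the call was lost in 21 of 28 fits with 1 library left out. At 9 months Efnb1, a transmembrane ephrin, was lower (1 of 19, against 0.975%), at 4.09, 4.58 and 4.79 FPKM in AD and 6.78, 6.84 and 9.87 FPKM in WT (log2 difference -0.80, limma adjusted p = 0.046), and this call was lost in 14 of 28 such fits. Without the vessel-rich AD 4-month library 1 the counts at 4 months were 0, but AD was then 1 library, assumed to vary like the other groups. With AD 4-month library 2 left out, so that library 1 stood for its group by itself, 12 members were called higher and 2 lower at 4 months.

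In ACSA2+ libraries 0 of 44 members were called at 2 months (0.0201% of all genes higher and 0.00668% lower) and 0 of 44 at 9 months (0.435% and 0.513%), with an unadjusted limma p under 0.05 for 1 higher and 4 lower members at 2 months and 3 higher and 1 lower at 9 months. At 4 months Sema6d was higher (log2 difference 0.59, 1 of 43, against 1.35% of all genes) and Sema7a lower (-0.82, 1 of 43, against 0.561%). At 6 months Ephb3, Sema4a, Sema5b and Efnb1 were lower (4 of 35, against 3.59%) and 0 were higher (4.05%, with 2 at an unadjusted p under 0.05). Of these 4, Ephb3, a receptor of B-type ephrins, was called in every fit with 1 library left out (-1.12, limma adjusted p = 0.0028), while the count came to 1 without WT 6-month library 2 or 3 or AD 6-month library 3.

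At 12 months AD and WT microglia differed in 9 members: 8 of 20 were lower in AD (21.2% of all genes tested were lower) and Plxna4os1 was higher (15.9%). Along the first component the AD libraries of 12 months lay at 40.4 to 49.4, on the side of the 6-month libraries of both genotypes. The WT libraries of 12 months lay at -25.3 and -21.1, so genotype and this separation cannot be told apart here. Sema4g, Plxna4, Ptprs and Plxna4os2 were also lower in WT at 6 months, as given above. Sema4g was at 0.966, 1.05 and 1.14 FPKM in AD and 4.5 and 4.61 FPKM in WT (log2 difference -2.02 ± 0.16 SE, limma adjusted p = 5.6e-08). Sema4b, a class 4 semaphorin, was at 0.493, 1.12 and 1.38 FPKM in AD and 2.66 and 3.70 FPKM in WT (-1.67 ± 0.26, adjusted p = 3.9e-05). The genotypes did not overlap in either gene. Plxna4 was at 2.21, 2.21 and 2.38 FPKM in AD and 4.90 and 5.62 FPKM in WT (-1.18 ± 0.16), Ptprs at 0.959, 1.04 and 1.1 FPKM in AD and 2.22 and 2.26 FPKM in WT (-1.05 ± 0.16), and Plxna4os2 at 0.322, 0.417 and 0.551 FPKM in AD and 2.37 and 2.52 FPKM in WT (-2.29 ± 0.35). Again no AD library reached a WT library. These 5 calls held with any single library left out. Plxna4os1 went the other way, at 25.7, 28.0 and 31.3 FPKM in AD and 18.5 and 20.2 FPKM in WT (0.54 ± 0.16), and its call was lost without WT 12-month library 2 or AD 12-month library 3 (adjusted p up to 0.082).

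The remaining 3 lower members of microglia at 12 months rested on single WT libraries. Efnb1, at 5.76, 6.68 and 7.99 FPKM in AD and 10.2 and 14.5 FPKM in WT (-0.84), and Plxnb3 (-0.66) were lost without WT 12-month library 2 (adjusted p = 0.15 and 0.057), and Plxna3 (-1.07), at 0.167, 0.183 and 0.210 FPKM in AD and 0.448 and 0.561 FPKM in WT, without WT 12-month library 1 (0.086). Plxnb2 had a difference of -0.46 (adjusted p = 0.0039), under the fold threshold. Genes over 5 kb as a whole had a median of -0.31 in this comparison, and the members a median of -0.51, against -0.03 over all genes tested. The share called lower was 33.6% among genes over 5 kb. With the trend in gene length removed 7 members were called lower. Markers of choroid plexus and ependyma summed to 962 FPKM in AD and 10.3 FPKM in WT in this comparison. Ttr made up most of both sums, at 954 FPKM in AD and 8.86 FPKM in WT, and could not be tested because its libraries were not recovered. The 3 of 6 that could be tested gave 0 calls, adjusted or at an unadjusted limma p under 0.05, which says nothing about Ttr.

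In ACSA2+ libraries at 12 months 15 of 40 members were lower in AD (11.1% of all genes tested) and 0 higher (8.36%, with 1 member at an unadjusted limma p under 0.05). Here, too, the AD libraries of 12 months stood apart from those of WT along the first component, and genotype and this separation cannot be told apart. Robo4 was at 0.412, 1.34 and 1.72 FPKM in AD and 3.15, 3.66 and 3.89 FPKM in WT (log2 difference -1.73 ± 0.35 SE, adjusted p = 0.001), and Sema7a, a membrane-anchored semaphorin that binds integrins and Plxnc1, at 1.91, 1.97 and 2.23 FPKM in AD and 3.88, 4.84 and 5.05 FPKM in WT (-1.13 ± 0.20, adjusted p = 0.00026). Neither gene overlapped between genotypes. Sema3c (-1.11), Epha2 (-1.08), Sema5a (-1.0), Sema4b (-0.94), Plxna2 (-0.94) and Efnb3 (-0.77) followed, and Sema4c, Plxna1, Sema6b, Efna2, Ephb4, Efnb1 and Ephb3 lay between -0.76 and -0.58. Efnb3, the highest member, was at 59.5, 83.7 and 101 FPKM in AD and 94.3, 155 and 168 FPKM in WT, and so overlapped. Calls that held with any single library left out were those of Robo4, Sema7a, Plxna2, Plxna1, Efna2 and Efnb1, and without AD 12-month library 1 the count was 9. Pecam1 was also lower (-1.06, adjusted p = 0.025), as were the other 5 endothelial genes that could be tested, and their part in the lower Robo4, Sema3c and Ephb4 was not tested. Among all genes over 5 kb tested, 17.7% were called lower in this comparison. With the trend in gene length removed, 13 members were lower and 1 higher.

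**Figure D5:**
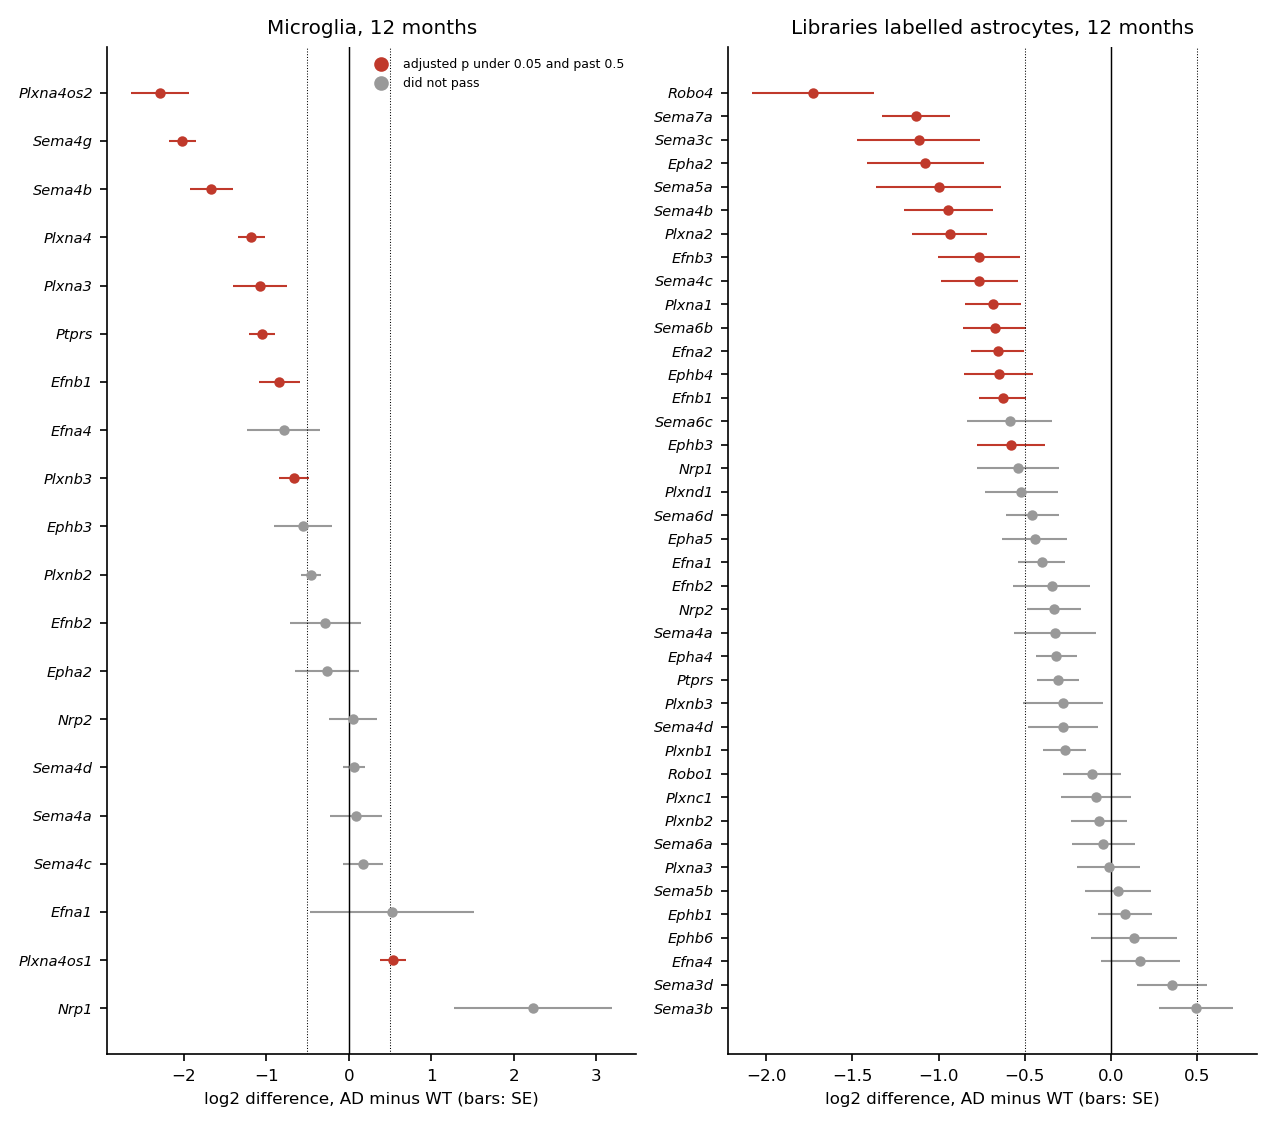
Log2 difference of AD minus WT at 12 months for each member tested in microglia (left) and in libraries labelled astrocytes (right), as points with bars of 1 SE from limma, with dotted lines at the fold threshold of 0.5 and called members in red. In microglia 8 members are called lower and Plxna4os1 higher, and in the libraries labelled astrocytes 15 are called lower.

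The genes that act beside these ligands and receptors were counted from a list of 62, which covers netrins and their receptors, myelin inhibitors, and signalling proteins of plexins, Robos and Eph receptors. In AD ACSA2+ libraries 1 of 49 was lower and 1 higher at 4 months (1.62% and 2.81% of all genes tested), 19 of 48 and 1 at 6 months (14.0% and 10.9%), 2 of 48 and 2 at 9 months (3.58% and 5.43%), and 15 of 48 and 0 at 12 months (14.1% and 12.7%). At 12 months 3 were higher at an unadjusted limma p under 0.05. In WT ACSA2+ libraries 5 of 50 were lower and 0 higher at 4 months (3.47% and 4.37%). At 4 months 4 were higher at an unadjusted limma p under 0.05. The counts were 26 of 49 and 2 at 6 months (25.2% and 22.3%), 6 of 50 and 3 at 9 months (6.85% and 5.58%), and 9 of 49 and 1 at 12 months (9.95% and 9.46%). In AD against WT at 12 months 7 of 22 were lower and 2 higher in microglia (21.2% and 15.9%), and 13 of 45 lower and 1 higher in ACSA2+ libraries (11.1% and 8.36%). Tnr, a matrix protein that oligodendrocyte lineage cells make, was the 1 gene of the list lower at all 4 later ages in WT ACSA2+ libraries, at 1.26 FPKM at 2 months and 0.180, 0.158, 0.149 and 0.168 FPKM at 4, 6, 9 and 12 months as group values. The study named Tnr, too, from these libraries. Vav2, a signalling protein downstream of Eph receptors, was the 1 such gene in AD microglia, at 10.4 FPKM at 2 months and 6.32, 5.60, 7.49 and 5.30 FPKM at the later ages.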

How the data were processed

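Each sample was 1 whole brain, from which microglia or ACSA2+ cells were sorted, and RNA was made into full-length cDNA (SMART-Seq v4), tagmented without strand marking and sequenced in pairs. Per the study's methods the authors aligned reads with Hisat2 v2.0.5 and counted them with FeatureCounts v1.5.0-p3, and the submitters' processing notes name Bowtie 0.12.2 and mm 8. The deposited values are FPKM, 1 per gene and group, as made by the authors from the libraries of the group.

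FPKM times gene length was solved for whole fragments per library. Of values from few fragments, 94.8% to 96.6% fell on whole steps, and 97.5% of microglia and 97.8% of ACSA2+ genes were recovered. On simulated data at least 98.6% of genes were recovered. Library numbers are arbitrary. Libraries were scaled by median-of-ratios size factors and tested with limma 3.58.1 (R 4.3.3, trended variance, all 10 groups of a cell type in a fit), with Benjamini-Hochberg adjustment over all genes of at least 0.5 FPKM in a compared group. In simulations on the WT microglia comparison of 12 with 2 months, 76 of 100 genes changed by 1 and 90 of 100 changed by 2 on the log2 scale were found. The changed genes were drawn from those at about 1 FPKM or more, so these shares do not cover members at lower levels. A plan without tests, made for 1 value per group, was replaced once libraries were recovered. Members and lists were chosen with earlier results of these data known. Values are given for members past the threshold at all 4 later ages, the highest of each family, the largest differences between cell types, genes the study names, and their ligands and receptors; of the other guidance genes, for those past it at all 4 ages. Sema4g, Sema4b, Sema7a, Sema4a, Sema5a, Sema5b, Sema6b, Ephb4, Epha2, Plxna3 and Plxna1 were named after their values were seen. Python 3.11.15, NumPy 2.4.6, pandas 2.3.3 and Matplotlib 3.10.9 were used.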

Additional observations from a re-analysis of the deposited data

Results flagged for a closer look

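In 14 cases the difference of AD against WT itself differed between an age and 2 months (limma, interaction of genotype and age, adjusted over all genes of the cell type), 7 in microglia and 7 in ACSA2+ libraries. No share of all genes was taken for this interaction, so these counts cannot be set against other genes. In microglia all 7 lay at 12 months, and each is a more negative AD-against-WT difference at 12 months than at 2 months. The changes were -2.26 ± 0.22 (log2, SE) for Sema4g, -2.15 ± 0.47 for Plxna4os2, -1.41 ± 0.35 for Sema4b, -1.26 ± 0.33 for Efnb1, -1.15 ± 0.21 for Ptprs, -1.14 ± 0.22 for Plxna4 and -0.51 ± 0.16 for Plxnb2, with adjusted p between 7.0e-06 and 0.024. In ACSA2+ libraries they were -1.40 ± 0.28 for Ephb3, -1.25 ± 0.33 for Sema4a, -0.98 ± 0.27 for Sema5b, -0.77 ± 0.23 for Plxnb2 and 1.12 ± 0.30 for Plxnd1 at 6 months, and -1.38 ± 0.36 for Sema4b and -0.75 ± 0.22 for Efna2 at 12 months, with adjusted p between 0.014 and 0.044. The AD libraries of 12 months stood apart from all WT libraries of 12 months along the first component, and the part of this in the values was not tested.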

How the results depend on the processing

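The 62 counts of members were recomputed under other settings. Of 504 values, 386 stayed within 1.5 times the main count, 52 were higher and 66 were lower. Values outside that range are given here as the members called higher or lower, for each comparison of AD with WT and of later ages with 2 months. The fold threshold alone, the length trend, left-out libraries and the set without AD 12 months were chosen after seeing the data. The causes were not tested. By the fold threshold alone on the deposited group values, AD against WT microglia had 2 higher and 3 lower at 2 months, 14 higher and 2 lower at 4 months, 3 higher and 5 lower at 6 months, 2 higher and 2 lower at 9 months and 3 higher at 12 months, while AD microglia against 2 months had 14 higher and 7 lower at 4 months, 12 lower at 9 months and 5 lower at all 4 later ages. By the fold threshold alone on the deposited group values, WT microglia against 2 months had 2 higher and 4 lower at 4 months, 2 higher at 6 months, 5 lower at 9 months, 1 higher and 7 lower at 12 months and 2 lower at all 4 later ages, while AD against WT ACSA2+ libraries had 4 lower at 2 months, 2 higher and 6 lower at 4 months, 1 higher at 6 months and 2 higher and 1 lower at 9 months. By the fold threshold alone on the deposited group values, AD ACSA2+ libraries against 2 months had 2 higher and 8 lower at 4 months, 1 higher and 14 lower at 9 months and 1 higher and 7 lower at all 4 later ages, while WT ACSA2+ libraries against 2 months had 8 lower at all 4 later ages. After quantile normalization, AD against WT microglia had 1 lower at 4 months, 0 higher at 6 months and 0 higher at 12 months, while AD microglia against 2 months had 5 lower at 4 months and 1 lower at all 4 later ages. After quantile normalization, WT microglia against 2 months had 0 higher at 6 months and 2 lower at 9 months, while AD against WT ACSA2+ libraries had 2 higher and 2 lower at 4 months. After quantile normalization, AD ACSA2+ libraries against 2 months had 0 higher and 5 lower at 4 months, 1 higher and 11 lower at 9 months and 2 lower at all 4 later ages, while WT ACSA2+ libraries against 2 months had 11 lower at 4 months. With a minimum of 1 FPKM, AD against WT microglia had 0 higher at 6 months, while WT microglia against 2 months had 1 lower at 4 months. With a minimum of 1 FPKM, AD ACSA2+ libraries against 2 months had 1 lower at 4 months, 0 higher at 6 months, 1 higher and 3 lower at 9 months and 0 lower at all 4 later ages, while WT ACSA2+ libraries against 2 months had 1 higher at 4 months, 0 higher at 9 months, 1 higher at 12 months and 0 higher and 3 lower at all 4 later ages. With no filter on low values, AD against WT microglia had 0 higher at 6 months and 0 lower at 9 months, while WT microglia against 2 months had 0 higher at 9 months. With no filter on low values, AD against WT ACSA2+ libraries had 0 higher at 4 months, while AD ACSA2+ libraries against 2 months had 0 higher and 0 lower at 4 months and 0 lower at all 4 later ages. With no filter on low values, WT ACSA2+ libraries against 2 months had 1 higher and 4 lower at 4 months and 1 lower at all 4 later ages, while AD microglia against 2 months had 1 lower at all 4 later ages. With a pseudocount of 1 FPKM, AD against WT microglia had 0 higher at 6 months, 0 lower at 9 months and 2 higher at 12 months, while AD microglia against 2 months had 1 higher at 4 months. With a pseudocount of 1 FPKM, WT microglia against 2 months had 0 higher at 9 months, while AD against WT ACSA2+ libraries had 2 lower at 6 months and 7 lower at 12 months. With a pseudocount of 1 FPKM, AD ACSA2+ libraries against 2 months had 0 higher and 1 lower at 4 months, 0 higher at 6 months, 0 higher at 9 months and 0 lower at all 4 later ages, while WT ACSA2+ libraries against 2 months had 1 higher and 4 lower at 4 months, 0 higher and 10 lower at 9 months, 1 higher at 12 months and 0 higher and 2 lower at all 4 later ages. After removal of the length trend, AD against WT microglia had 0 higher at 6 months and 0 lower at 9 months, while AD microglia against 2 months had 4 lower at 4 months, 1 higher at 9 months, 1 higher at 12 months and 0 lower at all 4 later ages. After removal of the length trend, WT microglia against 2 months had 0 higher at 9 months, while AD against WT ACSA2+ libraries had 1 higher at 12 months. After removal of the length trend, AD ACSA2+ libraries against 2 months had 1 lower at 4 months and 1 higher at 9 months, while WT ACSA2+ libraries against 2 months had 19 lower at 6 months and 3 lower at all 4 later ages. On FPKM as deposited, AD against WT microglia had 0 lower at 9 months, while AD microglia against 2 months had 4 lower at 4 months and 1 lower at all 4 later ages. On FPKM as deposited, AD against WT ACSA2+ libraries had 2 higher at 4 months. With size factors taken from genes at 1 FPKM or more, AD against WT microglia had 0 lower at 9 months and 0 higher at 12 months, while AD microglia against 2 months had 3 lower at 9 months and 0 lower at all 4 later ages. With size factors taken from genes at 1 FPKM or more, AD against WT ACSA2+ libraries had 2 higher at 4 months, while AD ACSA2+ libraries against 2 months had 2 higher and 0 lower at 4 months, 3 lower at 9 months and 1 higher and 0 lower at all 4 later ages. Without the 6-month groups and AD 12 months, 1 member was higher at the remaining later ages in AD ACSA2+ libraries. With libraries in place of groups, 19 members were higher in ACSA2+ libraries than in microglia, with no share of all genes taken. With single libraries left out, AD against WT microglia had 0 to 12 higher and 0 to 2 lower at 4 months, 0 to 1 higher at 6 months, 0 to 1 lower at 9 months and 0 to 2 higher at 12 months, while AD microglia against 2 months had 0 to 13 higher and 1 to 4 lower at 4 months, 1 to 2 higher at 9 months and 1 to 3 lower at all 4 later ages. With single libraries left out, WT microglia against 2 months had 0 to 3 lower at 4 months, 0 to 1 higher and 1 to 2 lower at 9 months and 1 to 3 lower at 12 months, while AD against WT ACSA2+ libraries had 0 to 3 higher and 0 to 2 lower at 4 months, 1 to 5 lower at 6 months and 0 to 1 higher and 9 to 16 lower at 12 months. With single libraries left out, AD ACSA2+ libraries against 2 months had 0 to 2 higher and 0 to 3 lower at 4 months, 1 to 2 higher at 6 months, 1 to 2 higher and 3 to 6 lower at 9 months and 0 to 1 lower at all 4 later ages, while WT ACSA2+ libraries against 2 months had 0 to 2 higher at 4 months, 9 to 18 lower at 9 months, 1 to 2 higher at 12 months and 0 to 1 higher and 1 to 5 lower at all 4 later ages. Of 237 calls of a member in a comparison, 157 held with any single library left out. No paired analysis was possible because the columns hold groups, and the recovered libraries carry no replicate numbers. Single calls of members under 1 FPKM rest on few fragments, and 2 microglia groups hold 2 libraries.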
